A study of Mus musculus with 6 samples.

Results

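The genes described here are bidirectional promoter lncRNA genes, long non-coding RNA genes that start close to a protein-coding gene on the opposite strand and are transcribed away from it. They were chosen by 2 properties: the class that GENCODE M21 gives them, and a total of at least 60 counts over all 6 libraries of the series. The deposited table lists 55335 genes, and 190 of its rows carry this class. Of these 190, 42 had 0 counts in every library, 79 had between 1 and 59 counts in total, and 69 reached 60 counts and are the members described here. Names that start with Snhg were to be left out, and 0 rows of the class had such a name. The total of 60 counts was the measured value that selected the members, so their abundance is given as a description. Members just inside the limit were Gm16196 with 60 counts and 4930432B10Rik and Gm49785 with 64 each, and rows just outside it were Gm26902 with 51 counts and 2810030D12Rik and 3110083C13Rik with 50 each.

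Most active mammalian promoters lie in CpG-rich DNA and fire in both directions. RNA polymerase II makes the mRNA on the coding side and, on the other side, an RNA that usually ends early and is removed by the nuclear exosome. Where such an upstream RNA is long or stable enough to be annotated as a gene, it enters the bidirectional promoter lncRNA class, and its level reflects both how often it is started and how fast it is degraded. Lipopolysaccharide (LPS), a component of the outer membrane of Gram-negative bacteria, is sensed by TLR4 and switches on NF-kB and AP-1 target genes in macrophages within minutes.

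Total RNA was sequenced from bone marrow-derived macrophages (BMDMs), 3 control libraries treated with PBS and 3 treated with LPS, each for 1 h. Both groups carried the C57BL/6 genotype, and the study used male mice of 7 to 10 weeks whose marrow cells were matured in medium conditioned by L929 cells. The dose of LPS in this experiment, and whether the replicates came from separate animals, are not given in the sources used here, so p-values measure the spread between these libraries, which may be technical. The libraries held 37787611 to 41516330 counts, and a floor of 3 counts corresponded to 0.0630 to 0.0919 normalized counts scaled to library size (CPM, counts per 1e6 reads, scaled by edgeR's TMM factors). The summed macrophage markers (8 genes) lay at 29900 to 31200 CPM in control and 35900 to 36200 CPM in LPS libraries. Lyz2 made up most of these sums, with means of 23272 and 24224 CPM, and Cd14 went from 398 to 3623 CPM. Fcgr1 was lower with LPS (log2 fold change -0.48) and Mertk was not called (-0.04). Adgre1, Csf1r, Cd68, Itgam, Lyz2 and Cd14 were higher. The T cell, B cell, erythroid and mast cell lists each summed to at most 1.65 CPM. The summed dendritic cell markers (2 genes) were at 1.17 to 1.41 CPM in control and 4.41 to 5.36 CPM in LPS libraries, the 5 neutrophil markers at 33.2 to 35.2 and 43.4 to 45.4 CPM, and the 3 fibroblast markers at 8.34 to 9.18 and 9.08 to 11.0 CPM. No gene of these lists was at 0 in all libraries, and the part of these differences in the results was not tested. Tnf, Il1b, Nfkbia and Cxcl2, early LPS response genes, together rose from 93.4 to 98.4 CPM in control to 14900 to 15000 CPM in LPS libraries. In bulk RNA, fewer cells with a transcript and less transcript per cell cannot be told apart.

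Each of the 69 members was paired with the coding gene on the opposite strand whose annotated start was nearest, and the 69 partners were all different genes. The distance between the paired starts had a median of 109 bp and ran from 4 to 781 bp, and 65 pairs lay within 300 bp. In 57 pairs the nearest starts of the 2 genes had a gap between them. In 12 pairs they crossed, so that the beginnings of the transcripts overlapped. Genes with a gap between the nearest starts can still overlap through other annotated transcripts. AC114539.1, with a gap of 85 bp, has 531 exonic bases inside exons of Nfkb2. Exon length per member had a median of 1911 bp and ranged from 337 bp for Gm49785 to 7303 bp for 4632427E13Rik, and 26 members were covered by 1 exon block. Exonic bases of 29 members fell inside exons of another gene, always on the opposite strand, and in 23 of them that gene was the partner. The library kit keeps strand, but the strand setting of the counting is not given in the sources used here, so these 29 members carry the uncertainty that reads of the other strand may be counted in them. The remaining 40 members had no such overlap with exons, but 7 of them had exonic bases inside the span of another gene, outside its exons. For A130014A01Rik, Gm10614, Gm38560, Gm26910 and 2810013P06Rik this held for every exonic base. Reads from the unspliced RNA of the other gene may be counted in these 7 members.

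Promoter windows of 300 bp (250 bp before to 50 bp after the start of the coding partner, from RefSeq on GRCm38.p6) were found by symbol for 56 of the 69 partners, and 38 of these windows held the annotated start of the member too. These shared promoters were rich in G and C, with a median GC content of 68.0% and 29 CpG dinucleotides, against 52.7% and 7 over all 32851 windows. The following 5 windows are shown because their lncRNA genes gave the largest rises apart from the partner, the rise beside an NF-kB gene, and the 2 largest falls with over 180 counts in every control library and a start in the window. They are written 5′ to 3′ on the coding strand, with motif matches on either strand in capitals, and the lncRNA is read leftwards from its start.
Wdr48, with the start of Gm2449 at base 219 of chr9:119894645-119894944, plus strand, capitals marking 2 GC boxes and 2 ETS sites: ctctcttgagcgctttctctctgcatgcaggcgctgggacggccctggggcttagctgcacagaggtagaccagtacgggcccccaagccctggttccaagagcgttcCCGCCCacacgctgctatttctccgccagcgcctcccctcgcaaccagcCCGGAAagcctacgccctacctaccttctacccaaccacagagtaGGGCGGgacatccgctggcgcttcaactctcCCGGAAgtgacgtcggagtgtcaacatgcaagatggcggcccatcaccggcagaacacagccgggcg
Pofut2, with the start of Gm10941 at base 174 of chr10:77259050-77259349, plus strand, capitals marking 1 GC box and 2 ETS sites: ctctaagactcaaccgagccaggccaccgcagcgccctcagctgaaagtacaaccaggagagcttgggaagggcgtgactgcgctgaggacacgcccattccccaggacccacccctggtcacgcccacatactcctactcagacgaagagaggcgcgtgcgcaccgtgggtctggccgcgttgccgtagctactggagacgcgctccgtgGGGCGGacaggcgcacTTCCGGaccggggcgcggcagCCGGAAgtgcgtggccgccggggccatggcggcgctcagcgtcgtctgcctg
Nfkb2, with the start of AC114539.1 at base 167 of chr19:46305445-46305744, plus strand, capitals marking 2 NF-kB sites, 1 AP-1 site and 2 GC boxes: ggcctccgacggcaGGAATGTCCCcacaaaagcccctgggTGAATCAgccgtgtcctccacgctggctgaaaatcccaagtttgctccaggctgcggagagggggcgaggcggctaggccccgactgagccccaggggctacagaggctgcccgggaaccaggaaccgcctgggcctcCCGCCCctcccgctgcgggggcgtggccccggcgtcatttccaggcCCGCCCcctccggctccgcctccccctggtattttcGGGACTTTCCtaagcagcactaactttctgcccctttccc
Zdhhc7, with the start of A130014A01Rik at base 141 of chr8:120101423-120101722, minus strand, capitals marking 1 ETS site and 1 NF-kB site: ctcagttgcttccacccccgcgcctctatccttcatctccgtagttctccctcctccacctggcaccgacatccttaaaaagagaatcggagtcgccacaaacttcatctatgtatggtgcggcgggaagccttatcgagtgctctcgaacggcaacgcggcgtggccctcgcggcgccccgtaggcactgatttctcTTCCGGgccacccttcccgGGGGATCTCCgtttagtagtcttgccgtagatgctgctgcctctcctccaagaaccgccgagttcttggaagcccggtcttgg
Daxx, with the start of BC051226 at base 123 of chr17:33909195-33909494, plus strand, capitals marking 1 CCAAT box, 3 GC boxes and 2 ETS sites: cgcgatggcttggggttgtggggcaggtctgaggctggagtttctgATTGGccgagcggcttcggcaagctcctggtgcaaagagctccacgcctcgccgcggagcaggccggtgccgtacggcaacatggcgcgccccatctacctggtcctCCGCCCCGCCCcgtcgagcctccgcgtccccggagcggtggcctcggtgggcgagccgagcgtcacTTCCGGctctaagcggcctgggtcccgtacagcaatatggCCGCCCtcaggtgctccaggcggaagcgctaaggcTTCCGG

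The motifs searched on both strands were the GC box (GGGCGG), the ETS site (CCGGAA), the CCAAT box (CCAAT), the TATA box (TATAAA), the AP-1 site (TGANTCA), the CRE (TGACGTCA), and the NF-kB site and the serum response element by their consensus. None of the spelled motifs contains another. A GC box stood in 78.6% of the 56 partner windows and in 35.7% of all windows, and an ETS site in 39.3% and 14.9%. The TATA box was found in 5.36% of partner windows and 13.6% of all windows, the CCAAT box in 39.3% and 37.4%, and the NF-kB site in 12.5% (7 windows) and 8.46%. AP-1 sites stood in 3.57% of partner windows against 7.81%, CREs in 3.57% against 1.79%, and serum response elements in 5.36% against 1.63%. All 9 windows beside a rising member held a GC box and 1 of them, that of Nfkb2, an NF-kB site. Among the 16 windows beside a falling member, 11 held a GC box and 3 an NF-kB site. The CCAAT box stood in 0 of the 9 and 8 of the 16 windows, and the ETS site in 4 and 9. The differences between these 2 sets were not tested. These are matches of letters in a window and were not measured as binding.

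Most members were far less abundant than the coding gene they share a promoter with. Per kb of exon, the median member stood at 0.709 CPM in control and 0.638 CPM in LPS libraries, and the median partner at 7.33 and 8.65 CPM. The median member reached 9.70% of its partner's level per kb in control and 5.95% in LPS libraries, and 34 members lay under 10% in control. Only 3 members of tested pairs exceeded their partner in control: Ndufb1-ps at 255% of Cpsf2, AC133523.4 at 185% of Nudt8, and 4632427E13Rik at 24100% of Rab30. The plot of levels per kb shows the cloud of members below the line of equal level in both groups.

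**Figure D1:**
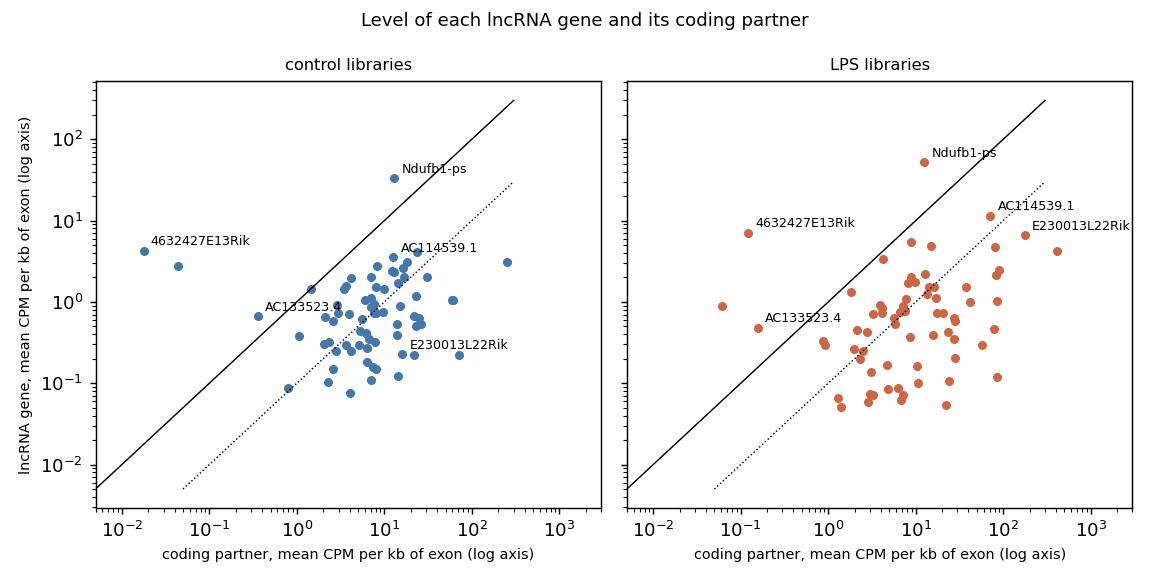
Mean normalized CPM per kb of exon of each lncRNA gene (vertical, log axis) against its coding partner (horizontal, log axis), for the 3 control libraries (left) and the 3 LPS libraries (right), 1 point per pair. The solid line marks equal levels and the dotted line 10% of the partner. Ndufb1-ps and 4632427E13Rik stand above the solid line in both panels, the second point at the far left is 9330151L19Rik, whose nearest coding gene was not tested, and E230013L22Rik moves from below to above 1 CPM per kb.

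Ndufb1-ps, the member with the highest level per kb, had 1832, 1705 and 1759 counts in replicates 1, 2 and 3 without LPS and 2016, 2055 and 1972 with it. Normalized levels of 38.1 ± 0.368 CPM without and 60.3 ± 2.52 CPM with LPS (SD, n = 3) gave a log2 fold change of 0.66 ± 0.04 (SE, edgeR adjusted p = 1.17e-10) that stayed within 1 log2 unit. Its name labels it a pseudogene of a subunit of mitochondrial complex I. Whether reads shared with a gene of similar sequence entered its count was not tested. 4632427E13Rik, next to the Golgi GTPase gene Rab30, had 1414, 1424 and 1507 control counts and 1753, 1642 and 1789 LPS counts. It was higher by a log2 fold change of 0.72 ± 0.04 (edgeR adjusted p = 1.04e-10). Rab30 itself, at only 12, 4 and 8 counts in control libraries, had 44, 37 and 37 in LPS libraries and rose by 2.75 ± 0.31 (edgeR adjusted p = 3.62e-07). 0610009L18Rik, beside the cytoplasmic actin gene Actg1, stood at 3.14 CPM per kb without and 4.23 with LPS, a log2 fold change of 0.43 ± 0.14 (edgeR adjusted p = 0.0103). Those 3 lncRNA genes kept the groups apart without reaching a change of 1 log2 unit, and 0610009L18Rik came to 0.02 with scaling by library size alone.

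At 1 h of LPS, 29 of the 68 members that could be tested met the 2 criteria of a call, an edgeR adjusted p under 0.05 together with a change of more than 1 log2 unit: 9 rose and 20 fell. Over all 15687 tested genes 20.9% were called, 10.5% as risen and 10.4% as fallen, against 13.2% and 29.4% of the members. The members that rose did so by log2 fold changes of 1.07 to 4.87, and those that fell by -1.01 to -3.54. A further 8 members were higher and 10 lower at an adjusted p under 0.05 with smaller changes, and 21 had an adjusted p of 0.05 or more. Counted by adjusted p alone, 17 members were higher (32.9% of all tested genes were) and 30 lower (34.9%). The remaining member, Gm16196, next to the splicing factor gene Srsf3, had 13, 15 and 9 control counts and 8, 9 and 6 LPS counts, and edgeR's filter on low counts removed it.

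The median log2 fold change over the tested members was -0.50, beside -0.01 over all tested genes, and 47 of 68 members (69.1%) had a value below 0, beside 51.0% of all tested genes. Control and LPS libraries did not overlap in normalized CPM for 46 of the 69 members, 16 higher and 30 lower with LPS, and for 70.5% of all tested genes. Other non-coding classes with at least 60 counts gave like shares: 26.5% of 336 lincRNA genes and 26.9% of 353 antisense genes fell, and 20.5% and 13.0% rose, whereas 7.33% of 12055 coding genes fell and 8.87% rose. The share of fallen members thus lay near that of the other non-coding classes, and the difference was not tested. The scaling mattered for this split. With library size alone, which moved the median of all tested genes to -0.42, 7 members rose and 32 fell, so rises made up 17.9% of the member calls in place of 31.0%, as the share over all genes went from 50.4% to 29.0%.

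Falls were also counted by how the members passed the filter on low counts. All 6 libraries passed the filter for 48 members, of which 6 rose and 12 fell, with a median log2 fold change of -0.21. Another 15 members had all 3 control but fewer than 3 LPS libraries over it, and 8 of them fell, while Gm2449, Gm10941 and AC126937.2 had all 3 LPS but fewer than 3 control libraries over it, and all 3 rose. Members in these last 2 groups entered the test through the group where they were high, so their number is no evidence of a direction. Among the 40 members without exonic overlap, 3 rose and 12 fell, and among the 29 with overlap, 6 rose and 8 fell. Of the 12 members with crossing starts 4 rose and 3 fell, and of the 57 with separate starts 5 rose and 17 fell.

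**Figure D2:**
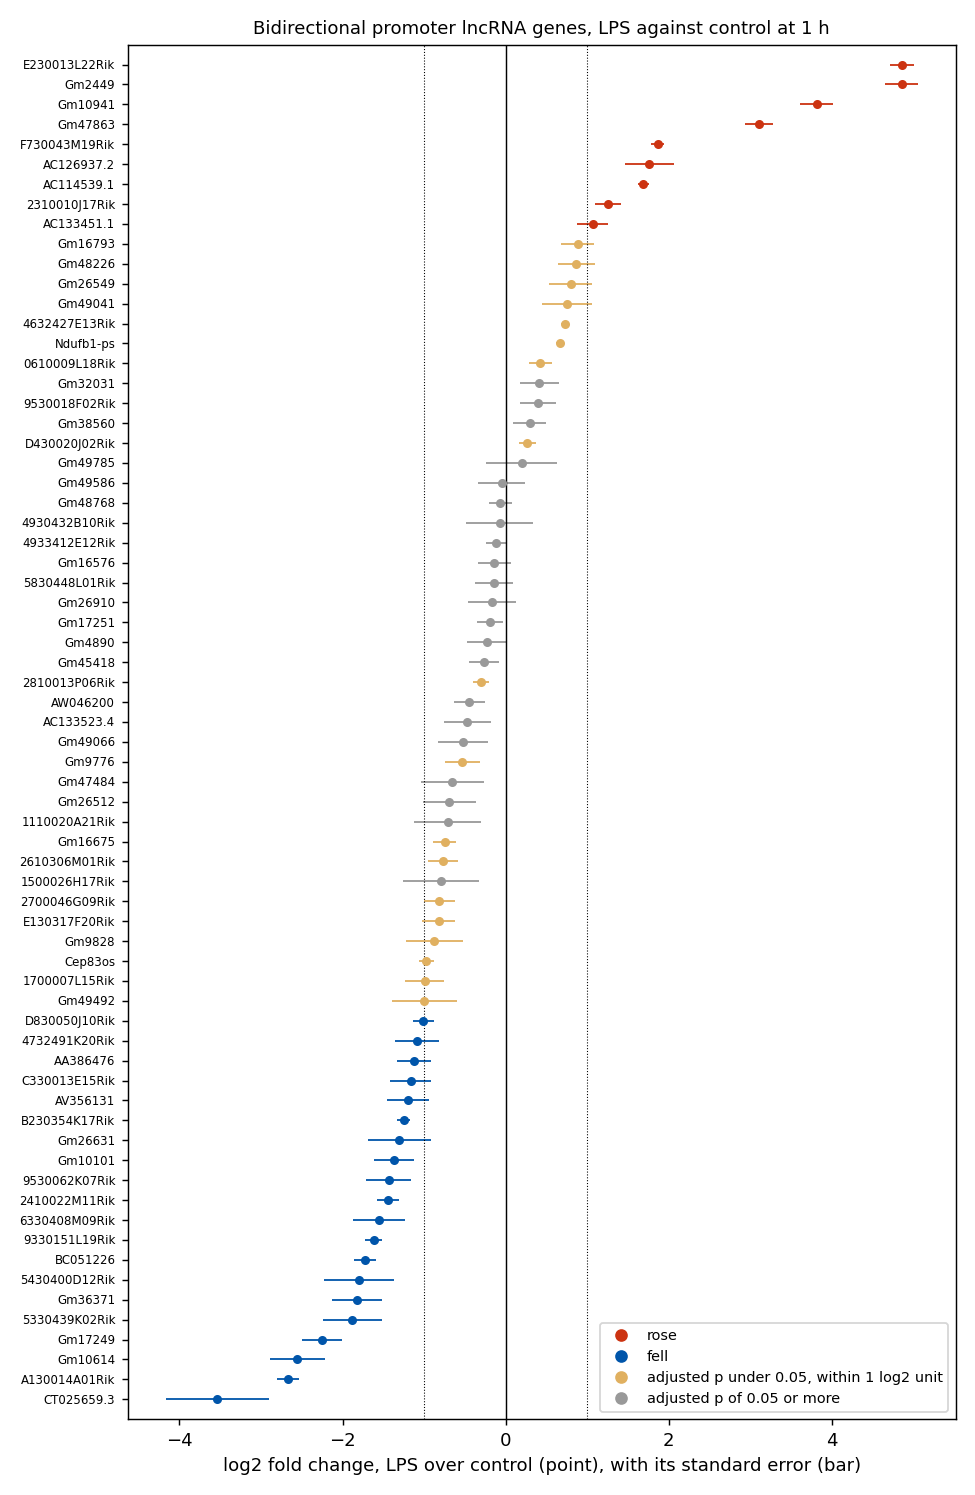
Log2 fold change of LPS over control for the 68 tested lncRNA genes, in rank order, with the standard error as a bar. Dotted lines mark a change of 1 log2 unit. Red points are the 9 genes that rose, blue points the 20 that fell, yellow points those with an adjusted p under 0.05 and a smaller change, and grey points those with an adjusted p of 0.05 or more.

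The largest rise was that of E230013L22Rik (chr8:11477929-11480241, plus strand, GRCm38), beside Rab20, which encodes a small GTPase of endosomes and phagosomes. It had 14, 18 and 26 control counts and 414, 424 and 391 LPS counts, so every LPS library lay far above every control library. Its level went from 0.419 ± 0.136 CPM to 12.3 ± 0.753 CPM, a log2 fold change of 4.87 ± 0.15 (edgeR adjusted p = 2.21e-15). Rab20 rose as well, from 1043, 1059 and 1006 counts to 8159, 8322 and 8199, by 3.46 ± 0.04 (edgeR adjusted p = 1.66e-21). These starts lie 781 bp apart and cross, and 356 exonic bases of E230013L22Rik lie inside exons of the opposite strand.

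Gm2449 (chr9:119887449-119894863, minus strand) rose about as much, but next to a coding gene that moved little. It had 9, 6 and 6 control counts and 143, 155 and 150 LPS counts, from 0.151 ± 0.0333 to 4.47 ± 0.250 CPM and a log2 fold change of 4.86 ± 0.20 (edgeR adjusted p = 2.47e-13). Its partner Wdr48, which encodes a cofactor that activates the deubiquitinase USP1, had 2759, 2503 and 2503 control counts and 2592, 2545 and 2672 LPS counts. The counts of Wdr48 overlapped between the groups, and after scaling its log2 fold change was 0.48 ± 0.04 (edgeR adjusted p = 2.31e-09). The 2 starts are 15 bp apart, no exon of Gm2449 overlaps that of another gene, and both starts lie inside the first window printed above.

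Gm10941 (chr10:77257776-77259223, minus strand) shares its promoter with Pofut2, an O-fucosyltransferase gene. Its counts were 9, 15 and 10 in control and 115, 119 and 116 in LPS libraries, and its log2 fold change was 3.82 ± 0.20 (edgeR adjusted p = 1.13e-11). Pofut2 rose less, from 2523, 2428 and 2404 counts to 3903, 3996 and 3974, by 1.16 ± 0.04 (edgeR adjusted p = 3.45e-15). Here again the groups were fully separate for both genes, and the lncRNA moved more than the mRNA.

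Jdp2, an AP-1 family repressor gene, and Nfkb2, which encodes the NF-kB precursor p100, rose together with their lncRNA genes. Gm47863 went from 24, 23 and 28 counts to 153, 180 and 135, by a log2 fold change of 3.11 ± 0.17 (edgeR adjusted p = 2.34e-11). Jdp2 went from 274, 305 and 265 counts to 6018, 5884 and 5794, by 4.86 ± 0.05 (edgeR adjusted p = 6.85e-22). The coding gene therefore gained more than the lncRNA gene in this pair. In Gm47863, 165 exonic bases lie inside exons of Jdp2 on the opposite strand. AC114539.1 (chr19:46303591-46305611, minus strand) had 303, 282 and 288 control counts and 652, 691 and 688 LPS counts, and rose by 1.69 ± 0.07 (edgeR adjusted p = 1.68e-13). Nfkb2 had 2702, 2681 and 2667 control counts and 10739, 11137 and 10895 LPS counts, and rose by 2.50 ± 0.04 (edgeR adjusted p = 5.42e-20). The window of Nfkb2 printed above holds 2 NF-kB matches and an AP-1 match. The lncRNA gene overlaps opposite-strand exons by 531 bases.

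Among the remaining rises, F730043M19Rik, beside the ataxin 7-like gene Atxn7l1, was well counted, with 204, 190 and 197 control counts and 553, 468 and 533 LPS counts. It rose by a log2 fold change of 1.86 ± 0.08 (edgeR adjusted p = 5.80e-13) while Atxn7l1 was higher by 0.57 ± 0.05. Of the 4610 exonic bases of F730043M19Rik, 3251 lie inside spans of other genes and 279 inside opposite-strand exons. AC126937.2, beside the zinc finger gene Zfp523, rose from 7, 15 and 14 to 31, 29 and 29 counts, by 1.76 ± 0.30 (edgeR adjusted p = 4.65e-05), and 752 of its exonic bases lie inside opposite-strand exons. These 2 lncRNA genes moved beyond their partners. 2310010J17Rik, beside the clathrin assembly gene Picalm, rose from 60, 53 and 55 to 88, 114 and 87 counts, by 1.25 ± 0.16, and Picalm by 1.40 ± 0.04. AC133451.1, beside the splicing factor gene Smndc1, rose from 34, 31 and 36 to 57, 49 and 47 counts, by 1.07 ± 0.19, and Smndc1 by 1.01 ± 0.05. Their log2 ratios to the partner changed by -0.19 (limma adjusted p = 0.364) and 0.01 (limma adjusted p = 0.979), and neither was called. AC133451.1 lay close to the limit: without LPS replicate 1 its change was 0.98 and it was no longer called, with upper quartile scaling it was 0.93 and not called either, and neither of these 2 lncRNA genes was called with library size alone.

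**Figure D3:**
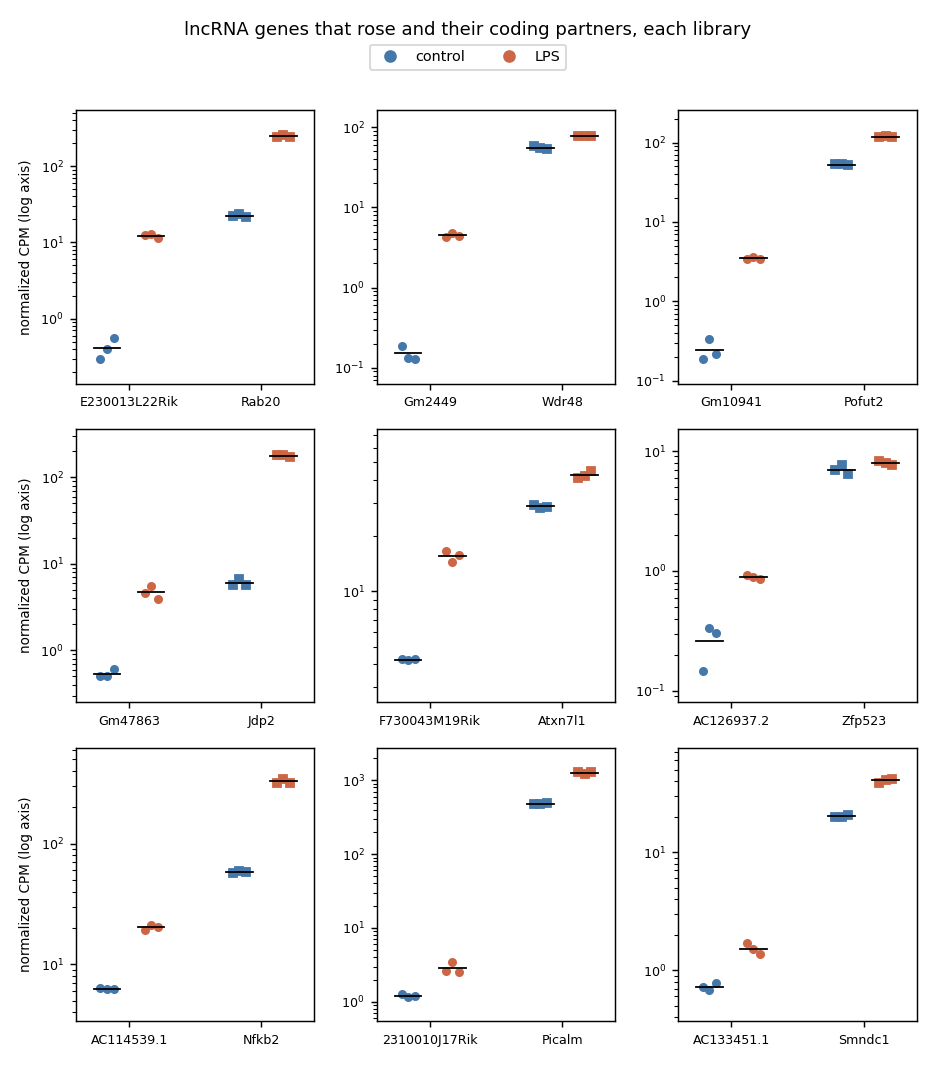
Normalized CPM (log axis) in each of the 3 control (blue) and 3 LPS (orange) libraries for the 9 lncRNA genes that rose (circles) and their coding partners (squares), with the group mean as a line. In all 9 panels the circles of the 2 groups are separate. The squares shift less than the circles for Wdr48, Pofut2, Rab20, Atxn7l1 and Zfp523, and more for Jdp2 and Nfkb2.

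The partners of the lncRNA genes that fell had log2 fold changes between -1.50 and 0.36 where they were tested, and only Fam219b, the partner of Gm26631, was called. The largest fall with over 180 counts in every control library was that of A130014A01Rik (chr8:120101582-120103904, plus strand), beside Zdhhc7, a palmitoyltransferase gene. It had 256, 248 and 258 control counts and 30, 30 and 26 LPS counts, and went from 5.49 ± 0.108 to 0.859 ± 0.0833 CPM. This is a log2 fold change of -2.67 ± 0.14 (edgeR adjusted p = 4.97e-12), or 6.37-fold lower. All 2323 exonic bases of A130014A01Rik lie inside the span of another gene, outside its exons. Zdhhc7 had 2175, 2237 and 2093 control counts and 1118, 1007 and 1065 LPS counts, a log2 fold change of -0.56 ± 0.05 (edgeR adjusted p = 1.06e-08).

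The fitted change of CT025659.3 was lower still at -3.54 ± 0.63 (edgeR adjusted p = 8.36e-05), but it rests on few counts. It had 23, 17 and 29 control counts and 4, 0 and 0 LPS counts, and passed the filter through its control libraries, where it was high. The ratio of control to LPS over the groups was 12.4, with a 95% counting interval of 4.65 to 47.0. Without LPS replicate 1 the LPS group had 0 counts, the fitted value became -7.36, and against a floor of 3 counts per library the level was at least 5.51-fold lower with LPS.

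BC051226 and 9330151L19Rik were the next largest falls with over 180 counts in each control library. BC051226 (chr17:33908044-33909317, minus strand), beside Daxx, which encodes a histone H3.3 chaperone, went from 224, 190 and 223 counts to 53, 38 and 48, by -1.72 ± 0.14 (edgeR adjusted p = 3.43e-09). Daxx had a log2 fold change of -0.82 ± 0.04 (edgeR adjusted p = 2.29e-12), so both genes of this pair were lower with LPS. 9330151L19Rik went from 308, 339 and 333 counts to 80, 72 and 78, by -1.62 ± 0.11 (edgeR adjusted p = 2.93e-10). Its nearest coding gene by start, Gm49383, had at most 5 counts in any library and was not tested. Dnaaf2, a dynein assembly factor gene, starts on the opposite strand inside the span of 9330151L19Rik and is named here after its values were seen. That gene fell too, from 71, 47 and 62 counts to 27, 15 and 22, by -1.02 ± 0.24 (edgeR adjusted p = 0.00101). 9330151L19Rik shares 1107 exonic bases with the opposite-strand exons of Dnaaf2, and all its 2545 exonic bases lie inside spans of other genes.

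Gm10614, beside Gins2, which encodes a part of the replicative helicase, had 40, 33 and 35 control counts and 5, 3 and 5 LPS counts, a log2 fold change of -2.55 ± 0.34 (edgeR adjusted p = 2.69e-06), and Gins2 one of -0.53 ± 0.09. 6330408M09Rik, beside the clamp loader gene Rfc4, had 44, 27 and 44 counts and then 10, 12 and 6, a change of -1.55 ± 0.32 (edgeR adjusted p = 0.000346), while Rfc4 was at -0.22 ± 0.11 (edgeR adjusted p = 0.0937). Gm17249, beside the RNA polymerase III subunit gene Polr3b, had 73, 56 and 71 counts and then 12, 9 and 9, a change of -2.25 ± 0.25 (edgeR adjusted p = 2.60e-07), while Polr3b was at -0.34 ± 0.05. All 3 lncRNA genes passed the filter through their control libraries, where they were high.

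Of the other named falls, 9530062K07Rik, beside the WASH complex gene Washc2, had 51, 43 and 34 control counts and 13, 11 and 10 LPS counts, a log2 fold change of -1.43 ± 0.28, while Washc2 was at 0.01 ± 0.03 (edgeR adjusted p = 0.830). 2410022M11Rik, beside the zinc finger gene Zmym5, had 169, 181 and 166 counts and then 41, 49 and 47, a change of -1.44 ± 0.14 (edgeR adjusted p = 4.09e-08). Both had separate groups and no exonic overlap with another gene. 5330439K02Rik beside Letmd1 changed by -1.88 ± 0.36 and Gm36371 beside Zfp787 by -1.82 ± 0.31, and neither had more than 45 counts in any library. 5430400D12Rik, beside the AP-3 adaptor subunit gene Ap3s2, had 19, 24 and 16 counts and then 2, 4 and 6, a change of -1.80 ± 0.43 (edgeR adjusted p = 0.00118). 5330439K02Rik, Gm36371 and 5430400D12Rik passed the filter through their control libraries, where they were high. The 8 further falls ranged from -1.37 to -1.01, and Gm26631 among them also passed through its control libraries.

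**Figure D4:**
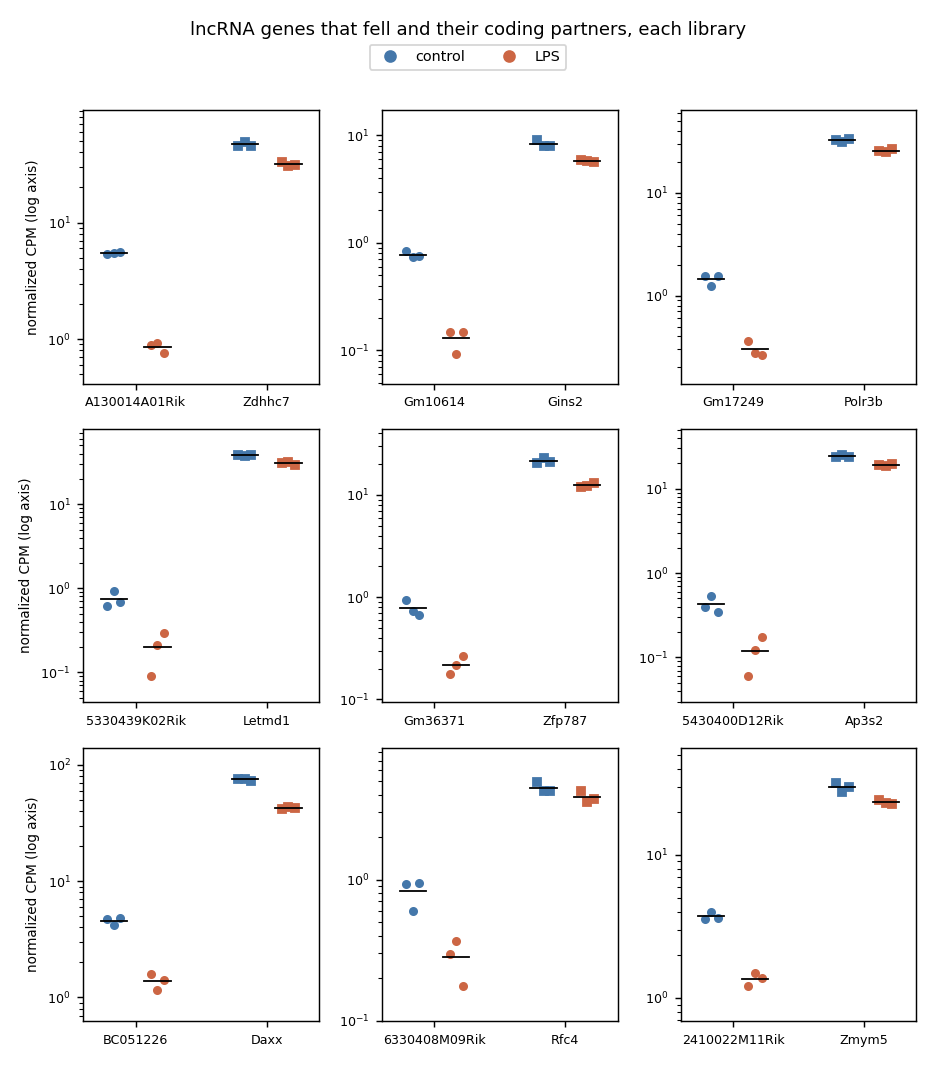
Normalized CPM (log axis) in each of the 3 control (blue) and 3 LPS (orange) libraries for 9 lncRNA genes that fell (circles) and their coding partners (squares), with the group mean as a line. The genes are those with the largest falls, leaving out CT025659.3, which has libraries at 0, and 9330151L19Rik, whose partner was not tested. The circles of the 2 groups are separate in every panel and lie further apart than the squares.

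Of the 68 partners that could be tested, 12 rose and 3 fell, 25 were higher and 17 lower at an adjusted p under 0.05 with smaller changes, and their median log2 fold change was 0.19. In 38 pairs both genes had an adjusted p under 0.05, and 28 of these (73.7%) had the same sign, 14 both higher and 14 both lower. Of the 528 pairs of coding genes with opposite strands and starts within 2000 bp in which both passed, 363 (68.8%) had the same sign. In 9 of the 10 member pairs with opposite signs it was the lncRNA that was lower, and without LPS replicate 2 the number of opposite pairs was 6. Both genes passed both criteria in 7 pairs: the 6 pairs that rose together were those of Rab20, Pofut2, Jdp2, Nfkb2, Picalm and Smndc1, and the pair that fell together was Gm26631 with Fam219b. In 0 pairs did both genes pass in opposite directions. As a description, Pearson's r between the log2 fold changes of lncRNA and partner was 0.60 over 67 pairs (Spearman's rho 0.64) and 0.45 over the 58 pairs without the rising lncRNA genes, beside 0.19 over 1109 pairs of coding genes, where the genes of a pair share their libraries.

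Whether the lncRNA gene and the coding gene of a pair changed unequally was tested on the log2 ratio of their CPM within each library. Counts are per gene, so a partner's counts cover all its annotated starts and not the shared promoter alone. For some partners, among them Txnrd1, Ptbp1 and Nfkb2, the paired start lies inside the gene span. The scaling between libraries cancels in this ratio except through the small count added before the logarithm, which matters most for genes with few counts. Of 67 pairs tested, 30 were called with limma (adjusted p under 0.05 and a difference above 1), 6 with the lncRNA gaining on its partner and 24 with it losing, beside 26.1% of all 1846 opposite-strand pairs and 16.2% of the 1109 coding pairs. By adjusted p alone the lncRNA lost ground in 40 pairs and gained in 9, and the median difference was -0.69. Shares of all pairs by direction or by adjusted p alone are not given here, so these counts only describe the members. These differences are not the exact differences of the fold changes above, because 2 counts were added before the logarithm. Of the 19 fallen lncRNA genes with a tested pair, 13 were called as down relative to the partner, 7 of them among the 11 that passed the filter in all 6 libraries. Over all 47 pairs whose lncRNA gene passed it in all 6 libraries, 14 were called down and 2 up, again without a like share over other pairs. Of the partners of the 19 fallen lncRNA genes, 13 were lower, 2 higher and 4 not different at an adjusted p under 0.05. Their log2 fold changes ran from -1.50 to 0.36. Of the 9 lncRNA genes that rose, 5 gained on the partner, 1 lost and 3 were not called. The other gain was that of Gm49785, with 14, 12 and 9 control counts and 12, 3 and 14 LPS counts, whose partner Thap7, a THAP domain gene, fell by 1.23 on the log2 scale.

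The largest difference was that of Gm2449 against Wdr48, whose log2 ratio was -7.92, -8.24 and -8.23 in control and -4.16, -4.02 and -4.14 in LPS libraries, a gain of 4.02 ± 0.22 (limma adjusted p = 5.55e-11). Gm10941 gained 2.45 ± 0.22 on Pofut2 (limma adjusted p = 5.34e-08). A130014A01Rik changed by -2.05 ± 0.15 against Zdhhc7 (limma adjusted p = 2.57e-09). Gm2449 and Gm10941 passed the filter through their LPS libraries, where they were high, and A130014A01Rik passed it in all 6 libraries.

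In 4 other pairs among the 8 largest differences it was the coding gene that rose and the lncRNA gene that did not follow. Sgms1, a sphingomyelin synthase gene, went from 3438, 3222 and 3548 counts to 9760, 9249 and 9976, a log2 fold change of 1.98 ± 0.04 (edgeR adjusted p = 1.29e-18). Its lncRNA gene 2700046G09Rik had 90, 75 and 91 control counts and 27, 43 and 35 LPS counts, a change of -0.81 ± 0.19 (edgeR adjusted p = 0.00102), and their ratio changed by -2.78 ± 0.20 (limma adjusted p = 3.24e-09). The 2 genes of this pair thus differed in sign. Txnrd1, the thioredoxin reductase gene, rose from 5454, 5562 and 5496 to 21942, 21323 and 20799 counts, by 2.43 ± 0.04 (edgeR adjusted p = 1.76e-19). Gm38560 had 78, 57 and 47 control counts and 42, 53 and 66 LPS counts, with a log2 fold change of 0.29 ± 0.21 (edgeR adjusted p = 0.217). Its groups overlapped, and the ratio to Txnrd1 changed by -2.14 ± 0.22 (limma adjusted p = 3.03e-07). The Txnrd1 start paired with Gm38560 lies at base 82859179, inside a gene that spans 82833951 to 82897712. The rise of Txnrd1 may therefore come from other starts, which was not tested.

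Spty2d1, which encodes a histone chaperone, rose from 2479, 2258 and 2455 to 9539, 9317 and 9841 counts, by 2.47 ± 0.04 (edgeR adjusted p = 2.45e-20). Its lncRNA gene Gm32031 had 28, 26 and 24 control counts and 27, 25 and 23 LPS counts, a log2 fold change of 0.41 ± 0.24 (edgeR adjusted p = 0.136), and the ratio changed by -2.08 ± 0.24 (limma adjusted p = 8.96e-07). The raw counts of Gm32031 were nearly level while those of its partner multiplied. Ptbp1, a splicing repressor gene, rose by 1.11 ± 0.03 (edgeR adjusted p = 1.86e-15), and E130317F20Rik went from 110, 78 and 77 to 35, 26 and 47 counts, a change of -0.82 ± 0.21 (edgeR adjusted p = 0.00189). That ratio changed by -1.93 ± 0.22 (limma adjusted p = 6.99e-07). In all, 8 partners were called while their lncRNA gene was not, 6 risen and 2 fallen, and 19 lncRNA genes fell and 3 rose beside a partner that was not called, counting 9330151L19Rik, whose partner was not tested.

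**Figure D5:**
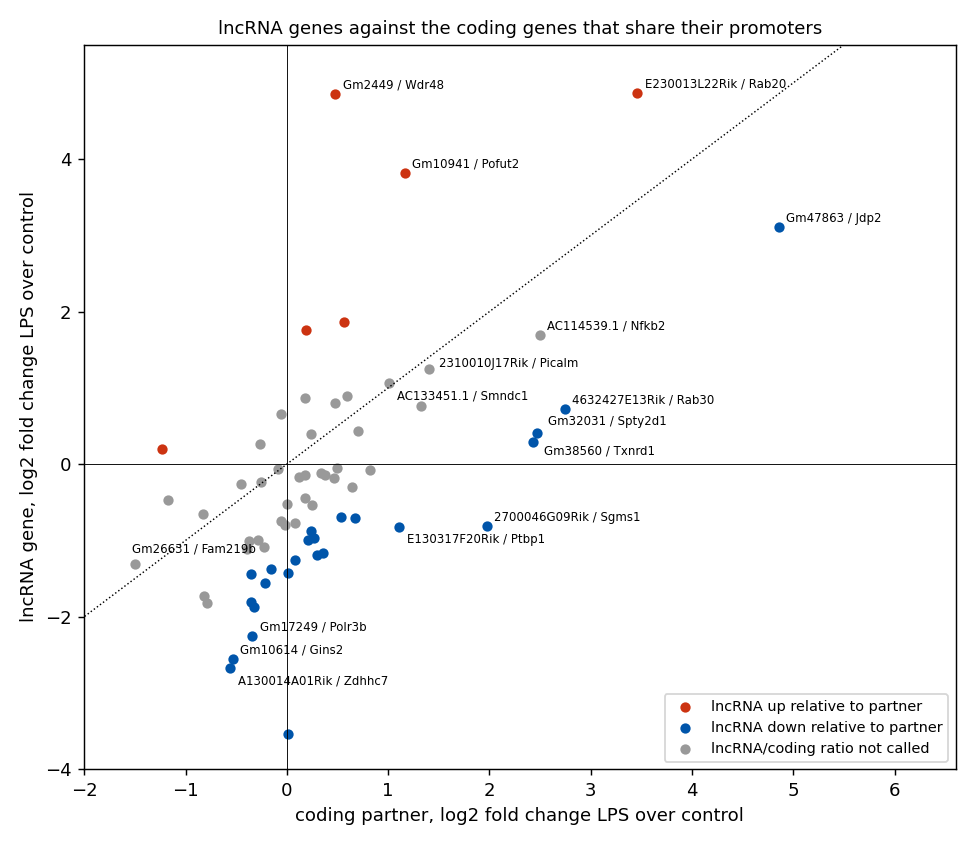
Log2 fold change of LPS over control of each lncRNA gene (vertical) against that of its coding partner (horizontal) for 67 pairs. Red and blue points are pairs whose lncRNA to coding ratio was called as higher (6) or lower (24) with LPS, grey points the other 37, and the dotted line marks equal changes. Most blue points lie below the line near a partner change of 0, and Sgms1, Ptbp1, Txnrd1, Spty2d1 and Rab30 lie to the right with lncRNA genes between -0.82 and 0.72.

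Genes known to limit promoter upstream RNAs (the exosome and its adaptors, early termination factors and U1 proteins) were measured beside the members. Of 34 symbols listed, 31 were found and 30 tested. Those not found, Skiv2l2, Cpsf3l and Ars2, are older names of Mtrex, Ints11 and Srrt, which were found. Pcf11, a termination factor, rose from 3055, 2985 and 3149 to 5823, 5177 and 6011 counts, by a log2 fold change of 1.36 ± 0.04 (edgeR adjusted p = 3.13e-15). Rbm7, the RNA-binding part of the nuclear exosome targeting complex, rose by 1.15 ± 0.04 (edgeR adjusted p = 1.55e-14). Exosc4, a core exosome subunit gene, fell from 813, 694 and 693 to 235, 221 and 277 counts, by -1.11 ± 0.08 (edgeR adjusted p = 1.21e-09). A further 4 genes were higher and 13 lower at an adjusted p under 0.05 with smaller changes, 10 were not called, and the median was -0.10. With library size alone 0 of these genes rose and 2 fell. The part of these genes in the levels of the lncRNA genes was not tested.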

How the data were processed

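Total RNA libraries were aligned to GRCm38 by the authors with HISAT2 2.1.0, handled with SAMtools 1.17, checked with FastQC 0.11.9 and counted per gene with featureCounts 2.0.0; the deposited values are raw counts, and the annotation release and strand setting of the counting are not given in the sources used here. Of 55335 rows, 55154 matched GENCODE M21 without the version and 181 did not. Counts were tested in R 4.3.3 with edgeR 4.0.16 (filterByExpr, TMM, quasi-likelihood, Benjamini-Hochberg over 15687 genes), with calls needing an adjusted p under 0.05 together with a change of more than 1 log2 unit. Log2 ratios of lncRNA to partner were tested with limma 3.58.1 (prior count 2, trend on the lower gene) over 1846 opposite-strand pairs with starts within 2000 bp. Levels are mean ± SD over 3 libraries and fold changes carry standard errors. Floors and counting intervals cover counting error only.

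The members, gene lists and the rule for named genes were chosen with earlier results of these data known. The rule took up to 12 members with the highest and 12 with the lowest called fold changes, the 6 with the highest CPM per kb, the 3 on each side of the 60-count limit, up to 8 pairs with the largest ratio change and their partners. 1 pair is not reported here. The exception is named after its values were seen, as were the partners listed as moving together. Alternatives were other scalings, filters, totals and start distances, DESeq2 1.42.0, limma voom, a replicate block, leaving out each library, and members without exonic overlap. Replicate numbers pair the libraries because the labels give them as batches in both groups; after the group means were taken off, libraries sharing a number correlated at -0.014, 0.082 and 0.039. The split of calls by filter and overlap was chosen after seeing the data. The smallest p of an exact permutation test on 3 against 3 libraries is 0.1. On simulated counts the edgeR, DESeq2, limma voom and pair functions were tested before use. Changes were simulated only in genes above a control level that Gm2449, Gm10941 and CT025659.3 did not reach. That test therefore does not cover members with so few counts.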

Additional observations from a re-analysis of the deposited data

How the results depend on the processing

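With library size alone 32 members fell, the median of the members was -0.90, 7 partners rose and 6 fell, 43 pairs had the same sign, and 0 turnover genes rose and 2 fell. Upper quartile scaling gave a median of -0.64. With at least 10 counts in every library, which leaves 48 members, 13 fell, the median was -0.23, and with that limit on both genes the ratio was called up in 2 and down in 13 pairs. A total of at least 120 counts gave a median of -0.28. Without exonic overlap 3 rose and 12 fell, and 8 were higher and 18 lower by adjusted p.

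Leaving out each library in turn gave 9 to 10 rises, 19 to 24 falls, medians of -0.49 to -0.40, 21 to 26 pairs down and 5 to 6 up, and 6 to 9 pairs of opposite sign. Single member calls were lost without control replicate 1, control replicate 3, LPS replicate 1 or LPS replicate 3 (D830050J10Rik), control replicate 2 (4732491K20Rik), LPS replicate 1 (AC133451.1) and LPS replicate 2 (AV356131). The replicate numbers are called batches in the labels; in a fit with the replicate block 9 members rose and 20 fell, the same 29 genes; 31 members were lower by adjusted p, and 29 pairs had the same and 12 the opposite sign. DESeq2 called 27 of these 29 genes, without D830050J10Rik and Gm26631, and limma voom all 29 and 2 more. 0610009L18Rik missed the threshold with library size alone (0.02), with upper quartile scaling (0.29) and without LPS replicate 2 (0.36). Gm16196 has no value in the main fit. No result changed sign past a threshold. Counts under about 50 per library limit the small members.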
